A study of Homo sapiens with 34 samples.

Results

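BMP2, BMP4, BMP5 and BMP7, which encode ligands of the bone morphogenetic protein (BMP) family, and BMPER and GREM1, which encode secreted proteins that bind such ligands, were followed through a crossed differentiation of human embryonic stem cells. The genes were selected by symbol in the expression tables, by a rule that names no measured value, although earlier results of these data were known when the genes were picked. This gave 6 of 37950 genes. In GRCh38 with GENCODE v44 all 6 are protein coding. BMP2 lies at chr20:6767686-6780246 on the plus strand, BMP4 at chr14:53949736-53958761 on the minus strand, BMP5 at chr6:55753653-55875590 on the minus strand and BMP7 at chr20:57168753-57266641 on the minus strand. BMPER lies at chr7:33904308-34156427 and GREM1 at chr15:32718004-32745106, both on the plus strand.

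The 34 RNA sequencing libraries were made from wild-type cells of ESI017, a human embryonic stem cell line in established use, with 2 replicates of each of 17 conditions. Control cells stayed in mTeSR PLUS, a maintenance medium, and were sampled at 48 h according to the sample labels. On day 1, 4 media induced populations modeled on positions along the primitive streak (PS). DE(a) medium contained activin at 100 ng/ml and CHIR, an activator of Wnt signaling, at 2 µM. Medium for anterior PS (APS) contained activin at 30 ng/ml, bFGF at 20 ng/ml and CHIR at 4 µM. Mid PS (MPS) medium raised CHIR to 6 µM and added BMP4 protein at 40 ng/ml to the same doses of activin and bFGF, whereas posterior PS (PPS) medium was MPS medium lacking activin. Libraries were made of each population at 24 h, and again at 48 h after a second day in one of 3 media. DE(b) medium, for definitive endoderm, combined activin at 100 ng/ml with LDN, an inhibitor of BMP type I receptors, at 250 nM. PM medium, for paraxial mesoderm, also contained LDN at 250 nM, together with bFGF at 20 ng/ml and A8301, an inhibitor of activin and TGFβ receptors, at 1 µM. The methods of the study do not list CHIR in PM medium, but a figure legend does. The text of the study also refers to strong Wnt activation on day 2 in PM medium. LM medium, for lateral mesoderm, contained BMP4 protein at 30 ng/ml, A8301 at 1 µM and IWP2, an inhibitor of Wnt secretion, at 4 µM. A condition is named here by its day 1 and day 2 media, such as PPS-DE(b). The BMP4 added to the medium was protein, so the BMP4 transcripts counted here were made by the cells.

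BMP ligands are secreted dimers that bind type I and type II serine/threonine kinase receptors, after which SMAD1, SMAD5 and SMAD9 are phosphorylated, bind SMAD4 and act on target genes such as those of the ID family. Much of the control of this pathway lies outside the cell, where antagonists such as noggin, chordin and gremlin hold ligands away from their receptors. In the vertebrate gastrula BMP signaling is high at the posterior end of the streak and in lateral and extra-embryonic mesoderm, and it is opposed by antagonists made near the anterior end of the streak. BMP2 and BMP4 are closely related ligands, and BMP5 and BMP7 belong to another branch of the family. BMPER, the vertebrate relative of fly crossveinless-2, carries chordin-like domains and can restrain or promote BMP signaling depending on context. Gremlin 1, encoded by GREM1, is a cystine-knot antagonist of BMP2, BMP4 and BMP7.

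All 6 genes were higher in MPS and PPS cells at 24 h than in the control. Upstream sequences are shown for those with an entry in the RefSeq promoter table (GRCh38.p14). Entries were found for 4 of the 6 genes, with 8 start sites in all. BMP2 and BMP7 had no entry. For each gene the 250 bases before its most upstream start site in the table are printed 5′ to 3′ on the strand of the gene, with GGCGCC, a GC-rich element to which SMAD proteins can bind, in capitals. The runs are BMP4 at chr14:53955051-53955300 on the minus strand, BMP5 at chr6:55875591-55875840 on the minus strand, BMPER at chr7:33904665-33904914 on the plus strand and GREM1 at chr15:32717754-32718003 on the plus strand. By the GENCODE v44 spans given above, the runs of BMP4 and BMPER lie inside these genes, downstream of their 5′ ends. Of the BMPER run, 4 bases are in BMPER exons.
BMP4: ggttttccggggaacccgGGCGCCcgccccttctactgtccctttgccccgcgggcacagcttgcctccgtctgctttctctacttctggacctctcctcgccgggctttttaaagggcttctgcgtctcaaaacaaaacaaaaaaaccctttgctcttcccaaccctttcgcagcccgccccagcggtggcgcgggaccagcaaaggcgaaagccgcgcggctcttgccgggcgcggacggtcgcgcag
BMP5: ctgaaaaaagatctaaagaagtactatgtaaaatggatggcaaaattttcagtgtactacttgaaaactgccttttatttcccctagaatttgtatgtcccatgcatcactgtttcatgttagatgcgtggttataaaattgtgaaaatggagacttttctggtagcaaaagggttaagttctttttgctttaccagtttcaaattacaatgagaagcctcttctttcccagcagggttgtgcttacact
BMPER: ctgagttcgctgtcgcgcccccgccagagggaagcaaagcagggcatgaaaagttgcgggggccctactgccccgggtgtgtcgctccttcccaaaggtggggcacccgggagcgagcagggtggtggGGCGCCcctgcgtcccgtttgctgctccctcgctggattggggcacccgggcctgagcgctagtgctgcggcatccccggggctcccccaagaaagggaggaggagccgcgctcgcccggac
GREM1: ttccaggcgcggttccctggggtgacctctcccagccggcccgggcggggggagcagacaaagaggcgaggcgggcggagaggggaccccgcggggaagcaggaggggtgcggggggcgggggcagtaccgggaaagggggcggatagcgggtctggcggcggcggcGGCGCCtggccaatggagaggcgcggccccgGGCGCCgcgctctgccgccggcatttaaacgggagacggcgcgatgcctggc

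The 4 runs differed in base composition, with GC contents of 63.6% for BMP4, 35.6% for BMP5, 70.8% for BMPER and 76.8% for GREM1. Over all 35116 RefSeq windows the median GC content of the 250 upstream bases was 58%, and 90% of windows lay between 34.4% and 78.4%, so BMP5 lay near the lower and GREM1 near the upper end. GGCGCC, which is its own reverse complement, occurred 2 times in the 300 base window of BMP4 at this start, 1 time in that of BMPER, 2 times in that of GREM1 and 0 times in that of BMP5. It was absent from the windows at the other 2 start sites of BMP4 and the other start site of GREM1 and occurred 2 times at the other one of BMPER. In all, 4 of the 8 windows held it, as did 19.2% of all windows of this length. CAGAC or GTCTG, another sequence to which SMAD proteins can bind, was in 5 of the 8 windows, namely all of those of BMP4 and GREM1, and in 45.3% of all windows. TCAAAG or CTTTGA, a core of TCF and LEF binding sites, was in 0 of the 8 windows and in 12.9% of all windows. GGCGCC and GTCTG can share an end base, and the motifs were chosen with the sequences in view.

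The libraries held 15522780 to 23439799 counts (median 19341117), and levels are given as CPM, counts divided by the library total and scaled to 1000000, which are not corrected for gene length. The values are transcript counts that the authors estimated with Salmon and summed to genes. The 2 replicates of a condition are described as biological replicates, without detail, and p-values reflect the spread between such pairs. TBXT, a PS marker, averaged 278.5 to 1083 CPM over the 4 populations at 24 h and 0.0758 CPM in the control. SOX17, a definitive endoderm marker, averaged 168 to 472 CPM in DE(b) medium, but FOXA2, another one, averaged 6.59 CPM in PPS-DE(b) against 105.5 CPM in DE(a)-DE(b). TBX6, of paraxial mesoderm, averaged 157 to 189 CPM in PM medium, and HAND1, of lateral mesoderm, 603 to 1958 CPM in LM medium. The 3 amnion-like markers (GABRP, VTCN1 and TFAP2A) summed to 151 to 229 CPM in PPS-LM and to 24.1 to 93.9 CPM in the other LM libraries, and the 3 neural markers did not exceed 0.957 CPM in sum in any library. In bulk libraries fewer cells that express a gene and less RNA per cell cannot be told apart.

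**Figure D1:**
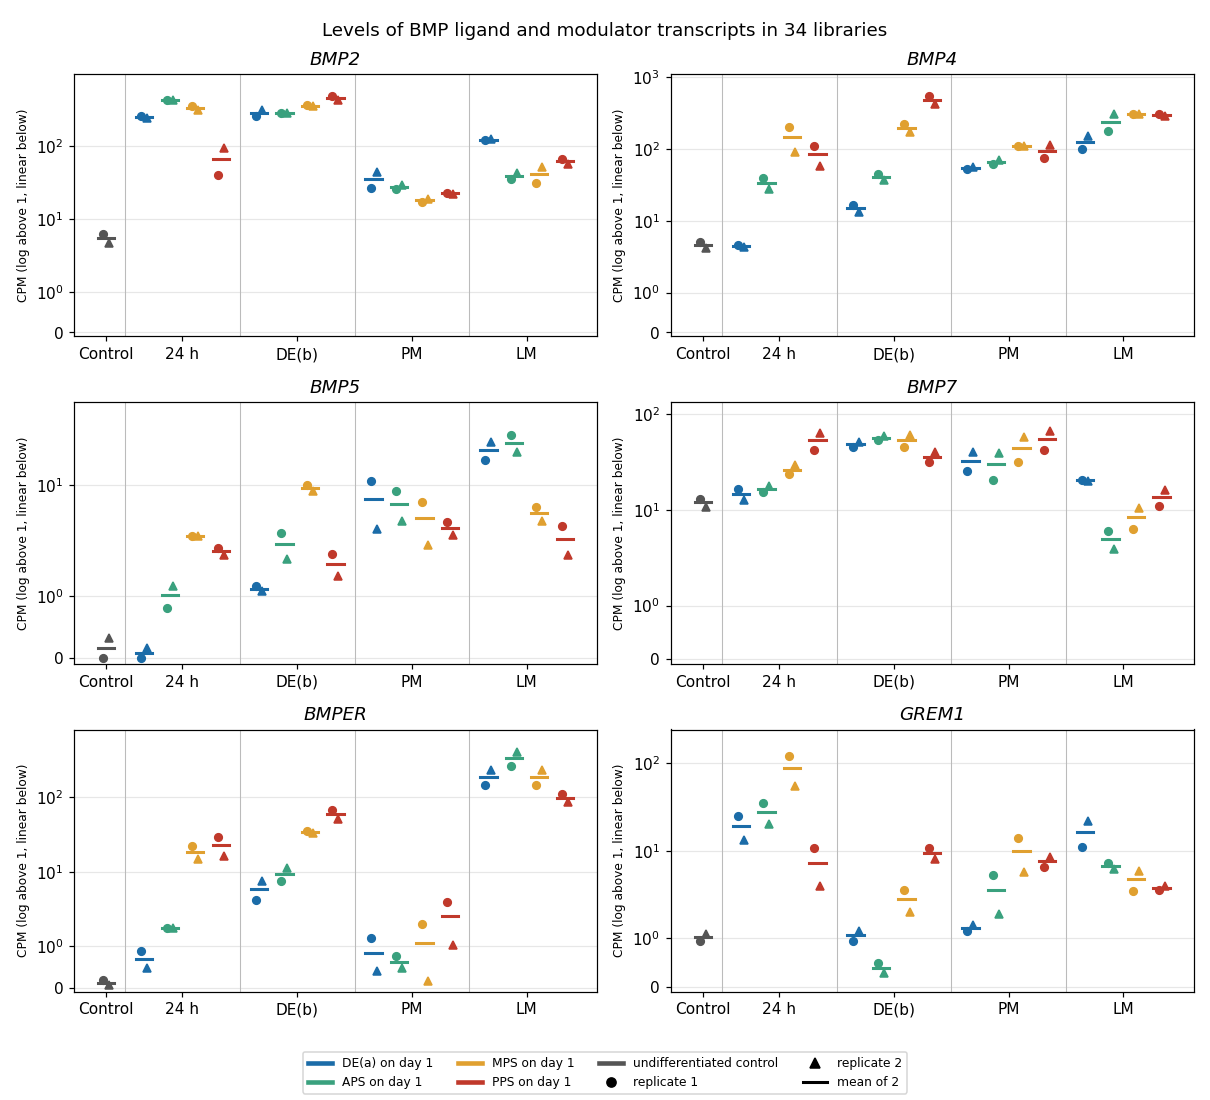
Level of each gene in CPM (y axis, logarithmic above 1 and linear below) in all 34 libraries, grouped along the x axis into control, 24 h and the 3 day 2 media. Circles are replicate 1, triangles replicate 2, bars their mean and colors the day 1 medium. BMP2 was lowest in the control, BMPER was at 87.3 CPM or more in every LM library and at 3.98 CPM or less in every PM library, and GREM1 was highest in MPS cells at 24 h.

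The first question was which of the 6 genes changed as pluripotent cells were turned into PS cells. Differences were tested with edgeR's quasi-likelihood test on the estimated counts, in 1 model over all 34 libraries, and p-values were adjusted by the Benjamini-Hochberg method over 17894 genes with enough counts. The threshold for a call was an adjusted p of 0.05. BMP2 and GREM1 were called higher with each of the 4 day 1 media, BMP4, BMP5 and BMPER with all of them except DE(a), and BMP7 with MPS and PPS. DE(a) cells thus had 2 of 6 genes called, where 19.0% of all tested genes were called in that comparison. The counts were 5 of 6 for APS against 24.5% of all genes, 6 of 6 for MPS against 30.0% and 6 of 6 for PPS against 29.8%. These 4 comparisons share the control libraries.

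BMP2 was at 6.21 and 4.63 CPM in the 2 control libraries. At 24 h it reached 256 and 241 CPM in DE(a) cells, 424 and 425 CPM in APS cells and 345 and 308 CPM in MPS cells, but only 40.0 and 91.6 CPM in PPS cells. No library of a PS population overlapped the control. Overlap is given here and below as a description, as the share of all genes without overlap was not counted in any comparison. On the log2 scale the rise was 5.62 (SE 0.34, edgeR adjusted p = 8.46e-11) in DE(a), 6.37 (SE 0.35, adjusted p = 1.55e-11) in APS, 6.01 (SE 0.35, adjusted p = 1.8e-11) in MPS and 3.62 (SE 0.32, adjusted p = 1.31e-08) in PPS.

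BMP4 was at 5.06 and 4.15 CPM in the control and at 4.57 and 4.28 CPM in DE(a) cells, so that these groups overlapped. It was at 40.0 and 27.5 CPM in APS cells, 205 and 92.5 CPM in MPS cells and 112 and 58.1 CPM in PPS cells. The replicates of MPS cells differed by 2.21 times, the widest gap of this gene in any condition, yet both lay above the APS libraries. Against the control the log2 fold change was 2.95 in APS (SE 0.39, edgeR adjusted p = 5.67e-06), 5.11 in MPS (SE 0.42, adjusted p = 4.37e-09) and 4.23 in PPS (SE 0.41, adjusted p = 5.41e-08).

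BMP5 was close to the limit of detection before differentiation. Control libraries held 0 and 6 counts, and 0 counts allow a level of up to 0.136 CPM in that library, for counting error only. DE(a) libraries held 0 and 3 counts. APS cells had 0.804 and 1.24 CPM, MPS cells 3.52 and 3.49 CPM and PPS cells 2.72 and 2.35 CPM. From the pooled counts, BMP5 was 6.99 times its control level in APS cells (95% exact binomial interval 2.97 to 20.1, counting error only), 23.9 times in MPS cells (10.7 to 66.1) and 17.4 times in PPS cells (7.70 to 48.6). The edgeR adjusted p was 0.0147, 9.71e-05 and 4.63e-04. The APS call ended when only APS and control libraries were fitted (adjusted p = 0.0838), without replicate 1 of the control (0.189) and without replicate 2 of APS (0.0948).

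BMP7 was called in MPS and PPS cells but not in DE(a) or APS cells. It was at 13.1 and 10.8 CPM in the control, 16.4 and 12.6 CPM in DE(a) cells, 15.2 and 17.7 CPM in APS cells, 23.4 and 29.3 CPM in MPS cells and 42.4 and 63.8 CPM in PPS cells. The rise was 1.24 on the log2 scale in MPS (SE 0.36, edgeR adjusted p = 0.0106) and 2.18 in PPS (SE 0.36, adjusted p = 8.22e-05). The MPS call ended without replicate 2 of MPS (adjusted p = 0.0755) or of the control (0.092).

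BMPER held 4 and 1 counts in the control libraries. It was at 0.881 and 0.483 CPM in DE(a) cells, 1.75 and 1.79 CPM in APS cells, 22.5 and 14.7 CPM in MPS cells and 28.8 and 16.3 CPM in PPS cells. The ratio of pooled levels to the control was 14.5 in APS (95% interval 5.94 to 45.9), 154.5 in MPS (65.9 to 477) and 190 in PPS (81.1 to 587), and each was called by edgeR (adjusted p = 0.00827, 7.56e-07 and 5.65e-07). In DE(a) the ratio was 5.62 (2.12 to 18.7) and the edgeR adjusted p 0.185. The DE(a) difference passed with DESeq2 (adjusted p = 0.0385) and with edgeR without the filter (adjusted p = 2.55e-04). The APS call ended without replicate 2 of the control (adjusted p = 0.0767).

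GREM1 was at 0.948 and 1.12 CPM in the control. Its level was 25.0 and 13.4 CPM in DE(a) cells, 34.9 and 20.4 CPM in APS cells, 121 and 55.2 CPM in MPS cells and 10.7 and 3.91 CPM in PPS cells. All 8 libraries of PS cells exceeded both control libraries, a property that was not counted over all genes. On the log2 scale GREM1 rose by 4.31 (SE 0.63) in DE(a), 4.82 (SE 0.64) in APS, 6.52 (SE 0.67) in MPS and 2.85 (SE 0.61) in PPS, with edgeR adjusted p from 1.26e-07 to 0.00109. These values are sums over 2 identifiers, ENSG00000166923 and ENSG00000276886, and only the first of these is in GENCODE v44. The first held 0% to 100% of the GREM1 counts of a library, with a median of 20.8%, and it held less than 1 count in 9 libraries. Kept apart, both identifiers were called higher than the control in all 4 populations. ENSG00000166923 held 0 counts in both control libraries and in replicate 2 of PPS at 24 h. Its PPS call (edgeR adjusted p = 0.0377) thus rests on 37.2 counts in replicate 1.

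Neighboring PS populations were then compared, to follow the genes along the series of day 1 media. BMP4 alone was called between APS and DE(a), 1 of 6 genes where 0.732% of all genes were called, and it rose by 2.91 on the log2 scale (SE 0.40, edgeR adjusted p = 2.82e-04). From APS to MPS, media that differ in CHIR dose and in the presence of BMP4 protein, 2 of 6 genes were called against 2.93% of all genes. BMP4 rose by 2.16 (SE 0.36, adjusted p = 9.07e-04) and BMPER by 3.41 (SE 0.58, adjusted p = 0.00121). GREM1 had a log2 difference of 1.70 (SE 0.52) at an adjusted p of 0.0948. The BMP4 call ended in a fit of the 4 libraries alone (adjusted p = 0.0788).

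PPS and MPS media differ in activin alone, and here 2 of 6 genes were called against 6.14% of all genes, both lower in PPS cells. BMP2 fell by 2.39 on the log2 scale (SE 0.29, edgeR adjusted p = 1.76e-05) and GREM1 fell by 3.66 (SE 0.57, adjusted p = 3.43e-04). The libraries of either gene did not overlap, but the share of all genes without overlap was not counted. BMP4 differed by -0.88 (SE 0.34, adjusted p = 0.143) and BMP7 by 0.94 (SE 0.35, adjusted p = 0.121), which did not pass. BMPER differed by 0.20 (SE 0.49) and its libraries overlapped. With the GREM1 identifiers kept apart, ENSG00000276886 fell by 3.60 (adjusted p = 4.60e-04), whereas ENSG00000166923 had a log2 fold change of -4.04 at an adjusted p of 0.0750. The difference of BMP4 passed without replicate 1 of PPS (-1.44, adjusted p = 0.0381) and without replicate 2 of MPS (-1.34, adjusted p = 0.0324).

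Each standard protocol was next followed from its own 24 h population into its day 2 medium. In the endoderm protocol, DE(a)-DE(b) against DE(a) at 24 h, 5 of 6 genes were called against 28.0% of all genes. GREM1 fell from 25.0 and 13.4 CPM to 0.936 and 1.22 CPM, a log2 change of -4.22 (SE 0.63, edgeR adjusted p = 3.2e-05). BMP4 rose to 16.9 and 13.3 CPM (log2 1.69, SE 0.39, adjusted p = 0.00253), BMP7 to 45.7 and 51.4 CPM (log2 1.67, SE 0.36, adjusted p = 0.00131) and BMPER to 4.24 and 7.50 CPM (log2 3.01, SE 0.70, adjusted p = 0.00253). The libraries of these 4 genes did not overlap, but the share of all genes without overlap was not counted. BMP5 reached 1.23 and 1.11 CPM, 14.8 times its 24 h level from pooled counts (95% interval 4.75 to 74.7, edgeR adjusted p = 0.00447), a call that ended without replicate 1 of DE(a) at 24 h (0.0681). BMP2 was at 255 and 304 CPM and overlapped its 24 h values. Of the GREM1 identifiers, ENSG00000276886 held 0 counts in both DE(a)-DE(b) libraries and was called lower, and the change of ENSG00000166923 was not called (log2 -2.09, adjusted p = 0.226).

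In the paraxial protocol, APS-PM against APS at 24 h, 3 of 6 genes were called against 25.1% of all genes. BMP2 fell from 424 and 425 CPM to 25.2 and 29.3 CPM (log2 -4.07, SE 0.31, edgeR adjusted p = 8.14e-09). GREM1 fell from 34.9 and 20.4 CPM to 5.22 and 1.88 CPM (log2 -3.07, SE 0.56, adjusted p = 3.04e-04), and BMP5 rose to 8.83 and 4.76 CPM (log2 2.63, SE 0.62, adjusted p = 0.00322). The other 3 genes did not pass. Their libraries did not overlap between the conditions, a property that was not counted over all genes. BMP4 was at 63.2 and 70.0 CPM, BMP7 at 20.4 and 39.3 CPM and BMPER at 0.765 and 0.469 CPM in APS-PM. Of the GREM1 identifiers, ENSG00000276886 was called (log2 -3.12) and ENSG00000166923 was not (log2 -2.88, adjusted p = 0.103).

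In the lateral protocol, MPS-LM against MPS at 24 h, 5 of 6 genes were called against 31.3% of all genes. BMPER rose from 22.5 and 14.7 CPM to 147 and 230 CPM (log2 3.33, SE 0.52, edgeR adjusted p = 3.28e-05). BMP2 fell to 31.3 and 50.5 CPM (log2 -3.00, SE 0.29), GREM1 to 3.49 and 5.94 CPM (log2 -4.23, SE 0.59) and BMP7 to 6.32 and 10.5 CPM (log2 -1.64, SE 0.36), with adjusted p of 7.97e-08, 8.24e-06 and 0.00138. BMP4 reached 305 and 311 CPM, a rise of 1.04 (SE 0.34, adjusted p = 0.0251) that became 0.59 at an adjusted p of 0.289 without replicate 2 of MPS at 24 h. That call also ended without replicate 1 or 2 of MPS-LM (0.0662 and 0.0859) and when only the 4 libraries were fitted (0.0594). With GREM1 identifiers apart, ENSG00000276886 was called (log2 -4.56) and ENSG00000166923 was not (log2 -3.20, adjusted p = 0.0575).

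**Figure D2:**
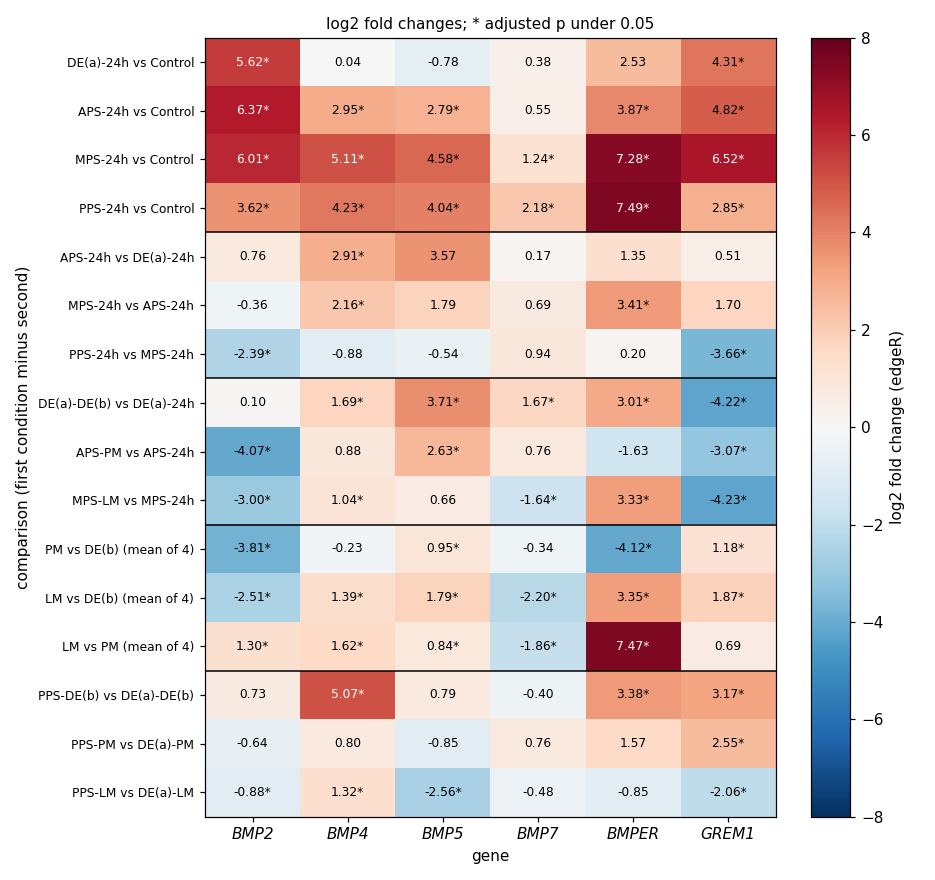
Log2 fold changes from edgeR for the 6 genes in 16 comparisons (first condition minus second), with red for higher and blue for lower and an asterisk at an adjusted p under 0.05. The 4 comparisons with the control are all at or above 0 except BMP5 in DE(a) cells, and BMPER was 7.47 on the log2 scale higher in LM than in PM medium. BMP5 and BMPER values against the control or DE(a) cells rest on few counts.

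The media of day 2 were compared as the mean over the 4 day 1 populations, with 8 libraries per medium. Between PM and DE(b), 4 of 6 genes were called against 43.0% of all genes. The counts were 6 of 6 against 39.6% for LM and DE(b), and 5 of 6 against 42.0% for LM and PM. These 3 comparisons share libraries. How many of all genes kept the libraries of 2 media apart within each population was not counted.

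BMP2 set DE(b) medium apart. Its level ranged from 255 to 476 CPM (median 325) in DE(b), from 17.2 to 43.2 CPM (median 23.8) in PM and from 31.3 to 123 CPM (median 53.3) in LM medium. In all 4 populations both PM libraries and both LM libraries lay below both DE(b) libraries. The log2 difference was -3.81 for PM against DE(b) (SE 0.15, edgeR adjusted p = 7.33e-15), -2.51 for LM against DE(b) (SE 0.14, adjusted p = 2.98e-12) and 1.30 for LM against PM (SE 0.14, adjusted p = 9.95e-08). Of the sum of squares of BMP2 over the 24 day 2 libraries on the log2(CPM + 1) scale, 91.2% lay between media and 3.11% between day 1 populations.

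BMP4 was more variable within a medium. It ranged from 13.3 to 556 CPM (median 109) in DE(b), from 52.7 to 113 CPM (median 72.5) in PM and from 100.1 to 311 CPM (median 296) in LM medium. LM exceeded PM in both libraries of all 4 populations, by 1.62 on the log2 scale (SE 0.18, edgeR adjusted p = 9.12e-08). LM exceeded DE(b) in 3 populations and fell below it in PPS cells, with a mean difference of 1.39 (SE 0.18, adjusted p = 9.22e-07). PM and DE(b) differed by -0.23 (SE 0.17, adjusted p = 0.318), and the direction was split, with 2 populations higher and 2 lower. For this gene 45.0% of the sum of squares lay between day 1 populations, 24.7% between media and 28.2% in their interaction.

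BMPER, like BMP2, varied mostly with the medium. It ranged from 4.24 to 66.8 CPM (median 22.1) in DE(b), from 0.167 to 3.98 CPM (median 0.906) in PM and from 87.3 to 405 CPM (median 189) in LM medium, so that the 3 media did not overlap. The log2 difference was -4.12 for PM against DE(b) (SE 0.32, edgeR adjusted p = 4.29e-10), 3.35 for LM against DE(b) (SE 0.26, adjusted p = 5.27e-10) and 7.47 for LM against PM (SE 0.34, adjusted p = 5.74e-14). Media held 89.2% of its sum of squares. PM values were few counts and uneven, as in MPS-PM, where the replicates had 32 and 3 counts.

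BMP7 was the gene of the 6 that was lower in LM than in both other media. It ranged from 31.5 to 60.7 CPM (median 48.5) in DE(b), from 20.4 to 67.0 CPM (median 39.5) in PM and from 3.91 to 20.7 CPM (median 10.7) in LM medium. Both LM libraries lay below the DE(b) and PM libraries in all 4 populations, with a log2 difference of -2.20 against DE(b) (SE 0.18, edgeR adjusted p = 1.59e-09) and -1.86 against PM (SE 0.18, adjusted p = 1.9e-08). PM and DE(b) differed by -0.34 (SE 0.17, adjusted p = 0.125). BMP7 had 74.2% of its sum of squares between media.

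BMP5 ranged from 1.11 to 10.02 CPM (median 2.30) in DE(b), from 2.92 to 10.9 CPM (median 4.71) in PM and from 2.35 to 28.2 CPM (median 11.6) in LM medium, with all media overlapping. It was higher in LM than in DE(b) by 1.79 (SE 0.30, edgeR adjusted p = 3.69e-05), higher in PM than in DE(b) by 0.95 (SE 0.29, adjusted p = 0.0118) and higher in LM than in PM by 0.84 (SE 0.28, adjusted p = 0.0202). The populations did not all move alike. In MPS cells both LM libraries, at 6.41 and 4.8 CPM, and both PM libraries, at 7.13 and 2.92 CPM, lay below the DE(b) libraries, at 10.02 and 8.79 CPM. Of the other 3 populations, 2 were higher in LM than in DE(b) in both libraries and 1 overlapped, and all 3 were higher in PM than in DE(b). DE(a)-LM, at 16.8 and 24.6 CPM, and APS-LM, at 28.2 and 19.9 CPM, lay above their PM libraries, and the other 2 populations overlapped between LM and PM. The LM against PM call ended without any 1 of 5 libraries (adjusted p 0.051 to 0.0623) and the PM against DE(b) call without replicate 1 of DE(a)-PM (0.0505).

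GREM1 ranged from 0.296 to 10.8 CPM (median 1.61) in DE(b), from 1.22 to 14.2 CPM (median 5.50) in PM and from 3.49 to 21.7 CPM (median 6.05) in LM medium, against 3.91 to 121 CPM (median 22.7) at 24 h. It was higher than in DE(b) by 1.18 in PM (SE 0.31, edgeR adjusted p = 0.00356) and by 1.87 in LM (SE 0.30, adjusted p = 2.98e-05). PM libraries lay above DE(b) libraries in 3 populations and overlapped in 1. LM libraries lay above DE(b) libraries in 2 populations, overlapped in 1, and lay below them in PPS cells, at 3.52 and 3.94 CPM against 10.8 and 8.06 CPM. LM against PM gave 0.69 (SE 0.28) at an adjusted p of 0.0504, just outside the threshold, and passed with DESeq2 (adjusted p = 0.0349) and without any 1 of 4 libraries (adjusted p 0.0131 to 0.0374). Kept apart, ENSG00000166923 was called higher in LM than in PM (log2 2.77, edgeR adjusted p = 0.0120) and ENSG00000276886 was not (log2 0.26, adjusted p = 0.499), whereas of both only ENSG00000276886 was called between PM and DE(b) (log2 2.86). Over the 24 libraries 54.7% of the sum of squares of GREM1 lay in the interaction of day 1 and day 2 media, the highest share among the 6 genes.

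The day 1 history was compared within each day 2 medium, with PPS and DE(a), the ends of the series, set against each other. In DE(b) medium 3 of 6 genes were called against 17.4% of all genes, all higher after PPS. BMP4 was at 556 and 430.1 CPM in PPS-DE(b) and at 16.9 and 13.3 CPM in DE(a)-DE(b), a log2 difference of 5.07 (SE 0.41, edgeR adjusted p = 2.05e-08). APS-DE(b) had 45.0 and 37.1 CPM and MPS-DE(b) had 228 and 173 CPM, with no overlap between neighbors in this series. BMPER was at 66.8 and 51.3 CPM against 4.24 and 7.50 CPM (log2 3.38, SE 0.54, adjusted p = 1.09e-04), and its libraries also kept the order DE(a), APS, MPS, PPS without overlap. The share of all genes that keep such an order was not counted. GREM1 was at 10.8 and 8.06 CPM against 0.936 and 1.22 CPM (log2 3.17, SE 0.62, adjusted p = 8.43e-04). Of its identifiers ENSG00000276886 was called and ENSG00000166923 was not (log2 0.23, adjusted p = 0.937). BMP2, at 476 and 423 CPM in PPS-DE(b), differed by 0.73 (SE 0.27, adjusted p = 0.0713) and passed when only the 4 libraries were fitted (0.0402). Definitive endoderm markers (SOX17, FOXA2 and CXCR4) summed to 124 to 252 CPM in PPS-DE(b) against 585 to 719 CPM in DE(a)-DE(b), all 3 with a lower mean in PPS-DE(b). CXCR4 was not particular to DE(b) medium, where its highest mean was 161.3 CPM, as it averaged 199.9 to 293.1 CPM in PM medium. Paraxial markers (TBX6, MSGN1 and DLL3) summed to 404 to 445 CPM against 6.93 to 9.71 CPM, all 3 with a higher mean in PPS-DE(b). Lateral markers (HAND1, GATA4 and FOXF1) summed to 213 to 215 CPM against 107 to 126 CPM, and HAND1 averaged 84.7 CPM against 0.0292 CPM. GATA4, summed over both of its identifiers, made up nearly all of the sum in DE(a)-DE(b). Its identifiers averaged 43.94 and 84.15 CPM in PPS-DE(b) against 42.24 and 74.0 CPM in DE(a)-DE(b). Both had their highest mean over all conditions in MPS-DE(b). MSGN1 and FOXF1 were at 0 in DE(a)-DE(b). The part of these cell type markers in the differences of BMP4, BMPER and GREM1 was not tested.

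In PM medium 1 of 6 genes was called between PPS and DE(a) histories against 8.61% of all genes. GREM1 was at 6.54 and 8.59 CPM in PPS-PM and at 1.22 and 1.40 CPM in DE(a)-PM (log2 2.55, SE 0.60, edgeR adjusted p = 0.00846). The call ended without replicate 1 of DE(a)-PM (adjusted p = 0.114), without replicate 2 of PPS-PM (0.0608) and when only the 4 libraries were fitted (0.0579). BMP4 was at 75.0 and 113 CPM against 52.7 and 56.8 CPM and did not pass (log2 0.80, SE 0.35, adjusted p = 0.17). BMP2, BMP5, BMP7 and BMPER did not pass either, with log2 differences from -0.85 for BMP5 to 1.57 for BMPER.

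In LM medium 4 of 6 genes were called between PPS and DE(a) histories against 14.3% of all genes. BMP4 was higher after PPS, at 306 and 287 CPM against 100.1 and 152 CPM (log2 1.32, SE 0.35, edgeR adjusted p = 0.0111). BMP2, at 66.6 and 56.0 CPM against 118 and 123 CPM, BMP5, at 4.26 and 2.35 CPM against 16.8 and 24.6 CPM, and GREM1, at 3.52 and 3.94 CPM against 11.2 and 21.7 CPM, were lower. Their log2 differences were -0.88 (SE 0.28, adjusted p = 0.0345), -2.56 (SE 0.60, adjusted p = 0.00422) and -2.06 (SE 0.55, adjusted p = 0.0125). BMPER, at 110.1 and 87.3 CPM against 148 and 229.5 CPM, did not pass (adjusted p = 0.294). Each of these 4 calls rested on single libraries. The adjusted p of BMP2 was 0.0879 to 0.226 without any 1 of the 4 libraries, and that of BMP4 was 0.169 without replicate 1 of DE(a)-LM and 0.0557 without replicate 1 of PPS-LM. BMP5 was at 0.083 without replicate 2 of PPS-LM, and GREM1 was at 0.114, 0.165 and 0.0775 without replicate 1 of PPS-LM, replicate 2 of DE(a)-LM and replicate 2 of PPS-LM. Neither GREM1 identifier was called by itself (adjusted p = 0.167 for ENSG00000166923 and 0.0772 for ENSG00000276886). Amnion-like markers summed to 151 to 229 CPM in PPS-LM and 57.0 to 93.9 CPM in DE(a)-LM. GABRP averaged 41.8 and 3.56 CPM, VTCN1 7.75 and 0.263 CPM and TFAP2A 140.1 and 71.7 CPM. Definitive endoderm markers summed to 9.21 to 10.3 CPM in PPS-LM and 102 to 135 CPM in DE(a)-LM, where SOX17 averaged 82.2 CPM and FOXA2 31.7 CPM, against 0.0273 and 0 CPM in PPS-LM. CXCR4 had the opposite order, at 9.73 CPM in PPS-LM and 4.67 CPM in DE(a)-LM. Lateral markers summed to 2067 to 2120 CPM and 542 to 1039 CPM. The part of these cell type markers in the differences between histories was not tested.

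Whether the history difference itself changed with the medium was tested as an interaction, the PPS minus DE(a) difference in one medium minus that in another. Between PM and DE(b), 2 of 6 genes were called against 7.71% of all genes. The difference was lower in PM for BMP4 (-4.27, SE 0.51, edgeR adjusted p = 1.43e-05) and for BMP2 (-1.37, SE 0.39, adjusted p = 0.034). Summed GREM1 was not called (-0.63), but its identifiers went opposite ways. ENSG00000276886 was called lower (-8.18, edgeR adjusted p = 0.00309) and ENSG00000166923 was not called (7.79, adjusted p = 0.115). These values rest on 0 counts, of ENSG00000276886 in DE(a)-DE(b) and of ENSG00000166923 in DE(a)-PM. The call of BMP2 ended without any 1 of 7 of the 8 libraries (adjusted p 0.0621 to 0.162). Between LM and DE(b), 5 of 6 genes were called against 9.00% of all genes, all with a lower difference in LM, and BMP7 alone was not called (-0.08, SE 0.49, adjusted p = 0.978). Of these, the call of BMP5 ended without any 1 of 4 libraries (adjusted p 0.056 to 0.0823) and that of BMP2 without replicate 2 of PPS-LM (0.0508). Between LM and PM, 1 of 6 genes was called against 6.51% of all genes, GREM1 (-4.61, SE 0.81, adjusted p = 8.47e-04). GREM1 was thus higher after PPS than after DE(a) in DE(b) and PM medium and lower in LM medium. Both identifiers of GREM1 were called in the LM against PM test (adjusted p = 0.0184 for ENSG00000166923 and 0.00607 for ENSG00000276886).

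All 68 tests of the 6 genes that were called, of 114 run, had the same direction when computed within replicate 1 and within replicate 2, on the log2(CPM + 1) scale. The calls were made from these same replicates, so this agreement is no separate support for them. The replicates were also not free of shifts. BMP5 was higher in replicate 1 in 13 of 17 conditions, and BMP7 was higher in replicate 1 in 4 of 17. The median ratio between replicates was smallest for BMP2 (1.13) and largest for GREM1 (1.7).

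The spread of levels over all conditions differed widely among the genes. The highest condition mean was 2867 times the lowest for BMPER (APS-LM against the control, where it rests on 5 counts), 298.5 times for BMP5 (APS-LM against DE(a) at 24 h, which rests on 3 counts), 223 times for GREM1, 111 times for BMP4, 82.9 times for BMP2 and 11.4 times for BMP7. BMP2 was led by PPS-DE(b) with 449 ± 37.9 CPM (SD, n = 2) and APS at 24 h with 424 ± 0.822 CPM, which overlapped, followed by MPS-DE(b) with 351.5 ± 8.53 CPM. For BMP4, PPS-DE(b) with 493 ± 89.3 CPM stood above MPS-LM with 308 ± 4.34 CPM, PPS-LM with 296.5 ± 13.6 CPM and APS-LM with 243 ± 93.0 CPM, and these last 3 overlapped in order. BMP5 was highest in APS-LM (24.0 ± 5.88 CPM) and DE(a)-LM (20.7 ± 5.49 CPM), which overlapped, and the next condition, MPS-DE(b), was at 9.40 ± 0.867 CPM. BMP7 had a flat top, in which neighbors overlapped from APS-DE(b) (56.3 ± 3.62 CPM) down to MPS at 24 h (26.3 ± 4.18 CPM). BMPER fell from 335 ± 98.8 CPM in APS-LM to 189 ± 57.7 CPM in DE(a)-LM without overlap, and GREM1 from 88.2 ± 46.8 CPM in MPS at 24 h to 27.7 ± 10.3 CPM in APS at 24 h. Over the order of 17 conditions, 7 of 16 neighbor pairs overlapped for BMP2 and BMPER, 11 for BMP4 and GREM1 and 12 for BMP5 and BMP7. Such pairs were not counted for all genes.

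To compare ligands with each other, CPM was divided by the length in kilobases of the canonical transcript, and each of the 4 ligands was expressed as a share of their sum. In the control BMP7 held 42.9%, BMP4 34.4%, BMP2 22.1% and BMP5 0.581% of a sum of 6.92 CPM per kb. BMP2 held 92.2% in DE(a) cells at 24 h, 84.6% in APS, 52.2% in MPS and 24.3% in PPS cells, while BMP4 held 3.02%, 12.3%, 43.6% and 57.7%. In DE(b) medium BMP2 went from 79.6% in DE(a)-DE(b) to 32.4% in PPS-DE(b) and BMP4 from 7.90% to 65.2%. In PM medium BMP4 held 58.8% to 76.7% and BMP7 14.5% to 19.5%, and in LM medium BMP4 held 59.7% to 91.4%. BMP5 did not exceed 4.76% in any condition. With the length of all exons merged, the share of BMP2 at 24 h was 94.5%, 89.4%, 63.2% and 32.8% in the same order. BMP2 instead of BMP4 then had the larger share in MPS-DE(b) (56.3% against 36.8%) and in the control (29.1% against 28.3%). With these lengths BMP4 held 48.7% in DE(a)-LM, its lowest share in LM medium, and BMP5 reached 6.28% in APS-LM.

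**Figure D3:**
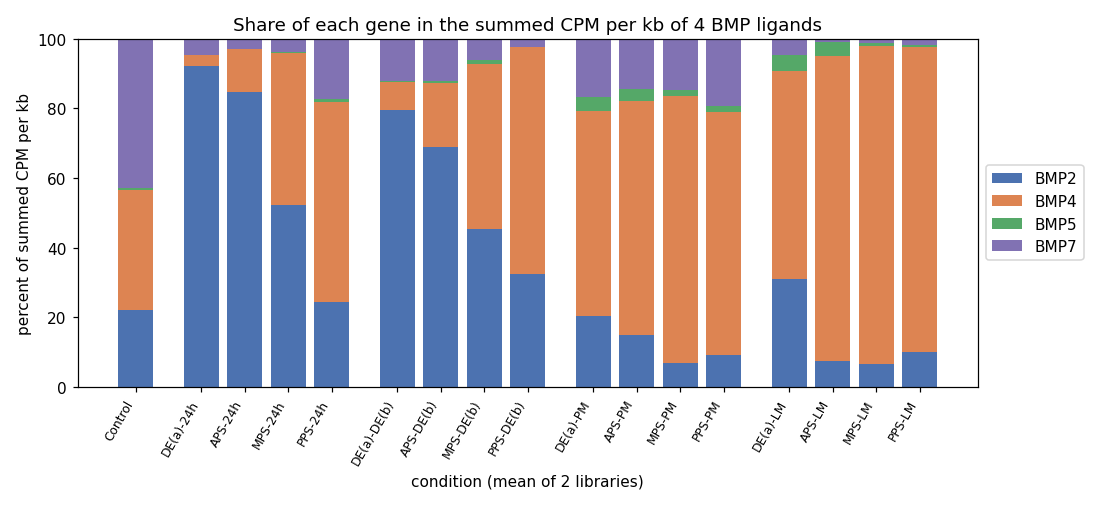
Share of BMP2, BMP4, BMP5 and BMP7 in their summed CPM per kb of canonical transcript (y axis, percent), as the mean of 2 libraries for each of the 17 conditions (x axis). BMP2 fills 92.2% of the bar of DE(a) cells at 24 h and 24.3% of that of PPS cells, and BMP4 holds at least 59.7% of every LM bar.

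Genes with the most similar pattern were sought for each of the 6 among 14646 genes whose mean was 1 CPM or more, by Pearson's r over the 17 condition means of log2(CPM + 1). The conditions come from the same 34 libraries, so the coefficients, given after each gene, are descriptions. BMP2 was most like FAM177A1 (0.942), NXN (0.934) and GATA6 (0.923), and BMP4 most like HAPLN1 (0.939), IL6ST (0.899) and FRMD6 (0.891). For BMP5 they were GRASP (0.897), CCDC191 (0.881) and CXorf40A (0.869), and for BMP7 ST6GALNAC5 (0.892), OVCH2 (0.883) and FAF2 (0.874). For BMPER they were KRT18 (0.931), ZNF611 (0.928) and SMAD6 (0.924), and for GREM1 DIAPH3 (0.881), CBWD6 (0.880) and TUFT1 (0.877). With a pseudocount of 0.1, GATA6 for BMP2, OVCH2 for BMP7 and SMAD6 for BMPER were no longer among the most similar genes, and the others stayed. Among the 6 genes themselves the highest coefficients were those of BMP4 with BMPER (0.730) and with BMP5 (0.667), and BMP2 with BMP4 gave 0.0998.

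Genes that respond to BMP signaling were counted beside the 6 genes, from a list of 10 that all passed the filter on low counts (ID1, ID2, ID3, ID4, SMAD6, SMAD7, SMAD9, BAMBI, MSX1 and MSX2). Against the control 7 of 10 rose in DE(a), 8 in APS, 9 in MPS and 10 in PPS cells, and 0 fell, where 19.0%, 24.5%, 30.0% and 29.8% of all tested genes were called in either direction. The median log2 fold change of the list was 1.77, 1.80, 2.84 and 3.52 in the same order, where that of all genes was between 0 and 0.03. MSX1, a homeobox gene, had the largest rise in all 4, from 0.117 ± 0.0901 CPM (SD, n = 2) in the control to 748 ± 50.2 CPM in PPS cells. In DE(b) medium, with the BMP receptor inhibitor, 7 of 10 fell and 0 rose from DE(a) at 24 h, and 7 of 10 fell and 0 rose from APS at 24 h to APS-PM, against 28.0% and 25.1% of all genes called. LM medium, with BMP4 protein, had 10 of 10 higher than DE(b) and 9 of 10 higher than PM with MSX1 lower, against 39.6% and 42.0% of all genes called. SMAD6, an inhibitory SMAD, averaged 497 ± 180 CPM (SD, n = 8) in LM and 19.7 ± 5.26 CPM in PM medium. In DE(b) medium 6 of 10 were higher and SMAD7 was lower in PPS than in DE(a) history, against 17.4% of all genes called. In PM medium 6 were higher and 0 lower, against 8.61% of all genes, and in LM medium 3 were higher and 3 lower, against 14.3%.

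The other extracellular antagonists and modulators, 21 tested of 23 listed, moved in both directions. Against the control 7 rose and 1 fell in DE(a), 8 and 2 in APS, 10 and 3 in MPS and 9 and 3 in PPS cells, where 19.0%, 24.5%, 30.0% and 29.8% of all genes were called. CER1, a secreted inhibitor of nodal and BMP ligands made by anterior cells, had the largest rise in DE(a) (1558 ± 336 CPM against 1.13 ± 0.44 CPM, SD, n = 2) and in APS (865 ± 417 CPM). NOG, which encodes noggin, had the largest rise in MPS (22.8 ± 6.62 CPM) and in PPS cells (40.8 ± 6.33 CPM), from 0.0492 ± 0.00567 CPM in the control. CER1 had the largest fall of the list from MPS to PPS cells, to 0.173 ± 0.244 CPM from 103 ± 75.6 CPM, and CHRD, which encodes chordin, the largest rise (13.7 ± 2.62 CPM against 2.57 ± 0.439 CPM, edgeR adjusted p = 0.00161). Between LM and DE(b) medium 7 rose and 7 fell, against 39.6% of all genes called, with NOG (35.6 ± 7.44 CPM against 1.90 ± 1.90 CPM, SD, n = 8) the largest rise and CER1 (0.428 ± 1.02 CPM against 4526 ± 875 CPM) the largest fall.

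The other BMP and GDF ligands, 12 tested of 15 listed, were counted in the same way. Against the control 1 rose and 1 fell in DE(a), and 0 rose and 1, 3 and 3 fell in APS, MPS and PPS cells. In DE(a), MPS and PPS cells these counts were near the 19.0%, 30.0% and 29.8% of all genes called, and in APS cells the share of all genes was 24.5%. GDF3 had the largest rise in DE(a) (62.2 ± 3.38 CPM against 15.3 ± 3.92 CPM, SD, n = 2, edgeR adjusted p = 0.00485) and the largest fall in MPS cells (1.90 ± 0.330 CPM, adjusted p = 3.12e-04). Between media 3 rose and 3 fell in PM against DE(b), 4 rose and 1 fell in LM against DE(b), and 6 rose and 1 fell in LM against PM, where 43.0%, 39.6% and 42.0% of all genes were called. GDF6 had the largest rise in LM against DE(b) medium, at 16.5 ± 23.2 CPM against 0.583 ± 0.489 CPM (SD, n = 8), and in PPS-LM it was at 53.5 ± 5.34 CPM against 1.40 ± 1.07 CPM in DE(a)-LM (adjusted p = 1.33e-04).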

How the data were processed

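The deposited tables hold estimated counts, which the authors made with Salmon 1.10.2 against GRCh38 and summed to genes in R 4.4.2, without normalization. The annotation release is not given in the sources used here. Replicates 1 and 2 are in separate tables. Counts of 37951 identifiers were read, those of GREM1 were summed, and CPM was computed from library totals. Rounded counts were tested in R 4.3.3 with edgeR 4.0.16, using filterByExpr by condition, TMM, a model with 1 mean for each condition, the quasi-likelihood F test and adjustment by Benjamini-Hochberg. Residual degrees of freedom were 17 and the common dispersion 0.0610. SE is the absolute log2 fold change divided by the square root of F. Totals of 15522780 to 23439799 put 3 counts, the limit that 0 counts allow, at 0.128 to 0.193 CPM, and intervals cover counting error only. The 6 genes and the lists were chosen with earlier results of these data known. Of each other list, the gene with the largest rise or fall among those called in a comparison could be named. Alternatives were RLE, library totals, no filter, a replicate block, only the libraries compared, DESeq2 1.42.0, a pseudocount of 0.1, merged exon lengths, each library left out (keeping the gene filter and trended dispersion of the full fit) and, chosen after seeing the data, the GREM1 identifiers apart. The fits were tested on simulated data. Python 3.11.15, pandas 2.3.3 and scipy 1.17.1 were used.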

Additional observations from a re-analysis of the deposited data

Results flagged for a closer look

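The difference between PPS and DE(a) histories depended on the day 2 medium in 8 tests of the 6 genes (edgeR interaction terms, log2 scale). It was lower in PM than in DE(b) medium for BMP2 (-1.37, adjusted p = 0.034) and BMP4 (-4.27, adjusted p = 1.43e-05). It was lower in LM than in DE(b) medium for BMP2 (-1.61, adjusted p = 0.00912), BMP4 (-3.75, adjusted p = 2.8e-05), BMP5 (-3.35, adjusted p = 0.014), BMPER (-4.23, adjusted p = 3.60e-04) and GREM1 (-5.23, adjusted p = 1.82e-04). It was lower in LM than in PM medium for GREM1 (-4.61, adjusted p = 8.47e-04). With the GREM1 identifiers apart, ENSG00000166923 was not called in the LM against DE(b) test.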

How the results depend on the processing

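Of the 114 tests of the 6 genes, with 0 changes of direction among calls, 114 kept their side of the threshold with RLE and 113 with library totals. Calls were gained in 24 tests without the filter, 5 with a replicate block and 6 with DESeq2, and 5 were lost with only the libraries compared. With the GREM1 identifiers apart, GREM1 was scored by ENSG00000166923 alone, also in the counts of the 6 genes below. That identifier lost 8 calls and gained 1. In PPS against MPS the other identifier, ENSG00000276886, was called. With 1 library left out at a time, 39 tests of 1 gene in 1 comparison lost a call, 10 gained one and 695 stayed the same. Counts over all genes moved by more than 1.5 times as follows. Without the filter there were 570 for APS against DE(a) at 24 h (from 131), 1144 for MPS against APS (from 524), 1872 for PPS against MPS (from 1098) and 2183 for the PM against DE(b) interaction (from 1379). With only the libraries compared there were 73 for APS against DE(a) at 24 h (from 131), 269 for MPS against APS (from 524), 296 for PPS against MPS (from 1098), 3159 for DE(a)-DE(b) against DE(a) at 24 h (from 5012), 2686 for APS-PM against APS at 24 h (from 4492), 175 for PPS-PM against DE(a)-PM (from 1541), 481 for the PM against DE(b) interaction (from 1379) and 488 for the LM against PM interaction (from 1165). With DESeq2 there were 264 for APS against DE(a) at 24 h (from 131), 809 for MPS against APS (from 524) and 1672 for PPS against MPS (from 1098). With a replicate block there were 1716 for PPS against MPS (from 1098) and 2106 for the PM against DE(b) interaction (from 1379). Of the 6 genes, 4 for APS against DE(a) at 24 h (from 1), 5 for MPS against APS (from 2), 4 for PPS against MPS (from 2), 6 for APS-PM against APS at 24 h (from 3), 5 for PPS-PM against DE(a)-PM (from 1), 4 for the PM against DE(b) interaction (from 2) and 3 for the LM against PM interaction (from 1) were called without the filter, and 1 for MPS against APS (from 2), 0 for PPS-PM against DE(a)-PM (from 1) and 1 for the PM against DE(b) interaction (from 2) were called with only the libraries compared, and 2 for APS against DE(a) at 24 h (from 1) and 4 for MPS against APS (from 2) were called with DESeq2, and 2 for the LM against PM interaction (from 1) were called with a replicate block, and 1 for PPS against MPS (from 2) were called with the GREM1 identifiers apart. Leaving out each library in turn gave 37 to 103 for APS against DE(a) at 24 h, 232 to 276 for MPS against APS, 267 to 1431 for PPS against MPS, 2985 to 4554 for DE(a)-DE(b) against DE(a) at 24 h, 2970 to 3406 for APS-PM against APS at 24 h, 1582 to 3089 for PPS and DE(a) histories in DE(b) medium, 579 to 1378 for PPS-PM against DE(a)-PM, 1579 to 1959 for PPS-LM against DE(a)-LM, 693 to 1800 for the PM against DE(b) interaction, 1030 to 1714 for the LM against DE(b) interaction and 772 to 1113 for the LM against PM interaction over all genes, and 0 to 1 for PPS-PM against DE(a)-PM, 1 to 2 for PPS-LM against DE(a)-LM, 1 to 2 for the PM against DE(b) interaction, 3 to 5 for the LM against DE(b) interaction and 1 to 2 for the LM against PM interaction among the 6 genes. The causes were not tested. Replicates 1 and 2 are in separate tables, and the labels do not say what a number shares across conditions. Over 136 pairs of conditions the correlation of same-numbered deviations ran from -0.0744 to 0.341 (median 0.0755) and was over 0.1 in 43, so the numbers were not taken as pairs, and a shared batch cannot be told apart. The 5 calls gained with the replicate block (edgeR adjusted p) were BMP7 in PPS against MPS (0.0364), BMP7 in PM against DE(b) medium (0.0305), GREM1 in LM against PM medium (0.0233), BMP2 in the comparison of histories in DE(b) medium (0.0403) and BMP7 in the LM against PM interaction (0.0482). BMP5 and BMPER in the control and BMPER in PM medium are limited by counts.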
